A study of Rattus norvegicus with 12 samples.

Results

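The wound transcriptomes of rats treated with d-SMG, the dried gel of mucus from the snail *Achatina fulica*, were compared with those of saline-treated controls on the later days of healing, days 7 and 14. The members are the 2 d-SMG and 2 control libraries of these days, 4 of the 12 libraries of the study, paired by day, with day 3 left out of the comparison. All rats were male SD rats made diabetic with streptozotocin (STZ), and each carried a full-thickness punch wound on the back. The controls received normal saline. The other groups, used here for comparison only, received s-GAG, the glycosaminoglycan purified from the same mucus, or Alg, a commercial alginate dressing. Each group had 1 library per day, and whether a library held 1 animal or a pool is not given in the sources used here. The 2 days are therefore separate comparisons without replicates. P-values of the main fit across days measure how far the differences between groups varied between days, pooled over all 4 groups.

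Skin wounds in the rat close by contraction of the skin with its underlying sheet of skeletal muscle, the panniculus carnosus, and by migration of keratinocytes from the wound edge and from hair follicles. The hair follicle cycles between rest and growth, and a growing follicle produces its own keratins in the hair shaft and in the inner root sheath that surrounds it. In bulk tissue, fewer cells of a type and less RNA per cell cannot be told apart.

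The 8 libraries of days 7 and 14 held 13748887 to 38302461 reads assigned to genes. Genes that define skin were present in all of them, with *Krt5*, a keratin of basal keratinocytes, at 932 to 4822 CPM (reads of the gene per 1000000 reads of the library, scaled by TMM factors). The s-GAG library of day 14 stood apart, with the very long gene *Ttn* at 172 CPM beside 43490 CPM of *Myh4*, whereas the other s-GAG library had 1852 CPM and 18540 CPM. Longer genes had lower fold changes on both days, with a Spearman coefficient between gene length, as implied by the ratio of reads to FPKM, and log2 fold change across the 15762 tested genes of -0.19 on day 7 and -0.288 on day 14, and the part of length in the results below was not tested.

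A difference was called shared when a gene was at least 2-fold higher or at least 2-fold lower in d-SMG on both days and the exact Clopper-Pearson 95% interval of each fold, which covers counting error only, excluded no difference. By this rule, 319 of the 15762 genes tested (2.02%) were higher in d-SMG on both days and 436 (2.77%) were lower. On day 7 alone, 876 genes (5.56%) were at least 2-fold higher and 750 (4.76%) at least 2-fold lower, and on day 14 the numbers were 1846 (11.7%) and 2162 (13.7%). The shared genes made up 36.4% of the genes higher on day 7 and 17.3% of those higher on day 14, and 58.1% and 20.2% of the genes lower on these days. Scaled by library size alone, which put the median log2 fold change of all genes at 0.311 on day 7 and 0.192 on day 14, the numbers were 538 higher and 348 lower, and on FPKM with a pseudocount of 0.1 they were 475 and 318. Another 227 genes were at least 2-fold different in opposite directions, of which 163 were higher on day 7 and lower on day 14. Across all tested genes, 57.6% had the same sign on both days, with a Pearson r of 0.304 and a Spearman coefficient of 0.228, and genes are not independent replicates.

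**Figure D1:**
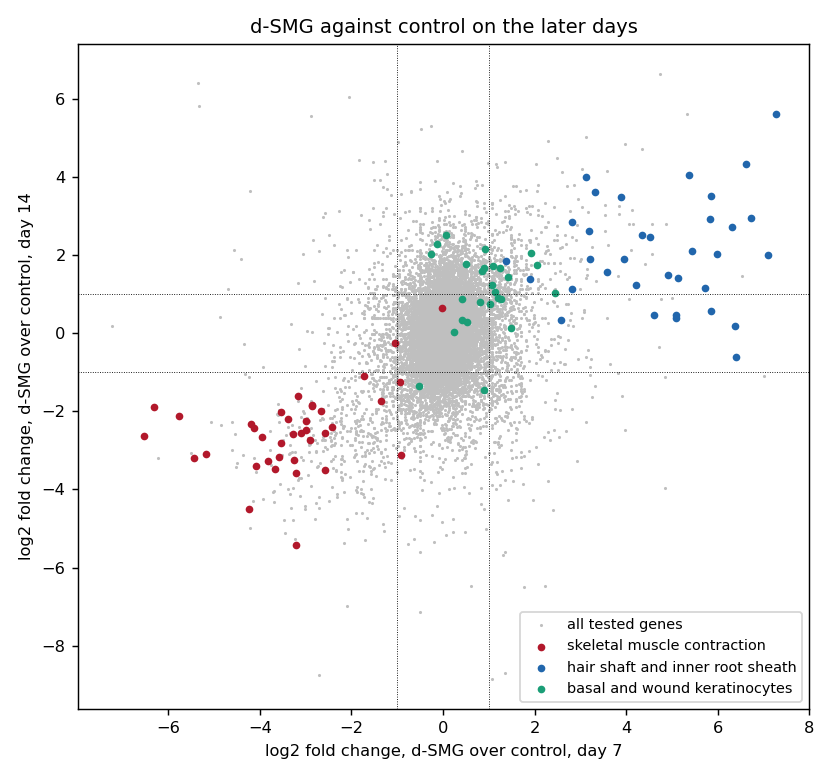
Each point is a gene, with its log2 fold change of d-SMG over control on day 7 (horizontal) and day 14 (vertical), where 0 to 2 reads were set to 3 reads. Dotted lines mark 2-fold, and the muscle genes (red) sit in the lower left while the hair genes (blue) lie to the right and mostly above 0, and most basal and wound keratinocyte genes (green) lie nearer the center in the upper right.

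No gene passed the main test across both days. In edgeR's quasi-likelihood test with day as a block, fitted over the 8 libraries of days 7 and 14, 0 genes (0%) had a Benjamini-Hochberg adjusted p under 0.05, and the smallest adjusted p was 1. At an unadjusted p under 0.05 the test gave 592 genes, 277 higher and 315 lower, or 3.76% of the genes tested. The DESeq2 Wald test called 149 genes at the same adjusted threshold, 48 higher (0.317%) and 101 lower (0.667%) of the 15150 genes that received an adjusted p. All 48 of the higher genes and 95 of the 101 lower genes were among the shared genes. Both rest on the same d-SMG and control counts, so this overlap is no independent support. A fit to the 4 d-SMG and control libraries alone, which leaves 1 residual degree of freedom, called 107 genes with edgeR. The common biological coefficient of variation of the 8 libraries was 0.469. All groups below are therefore described by their values and counts, and "higher" and "lower" refer to the measured levels.

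Hair shaft and inner root sheath genes were, of 29 lists, the one most often higher in d-SMG on both days. Of 34 tested genes, 23 were shared higher (67.6%, against 2.02% of all genes) and 0 shared lower. On both days 33 were higher, against 4696 of all 15762 tested genes. The median log2 fold change was 5.01 on day 7 and 1.95 on day 14, against 0.0093 and 0.0198 over all genes. DESeq2 called 11 of the 34, all higher, against 0.317% of all genes with an adjusted p. With edgeR none was called, and 15 were higher at an unadjusted p under 0.05, against 277 of all 15762 genes. Hair keratins and keratin-associated proteins are close paralogs, so reads shared between copies make the level of a single member uncertain.

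*Krt35*, a type I keratin of the hair shaft cuticle and matrix, was at 0.276 CPM in the control and 43.0 CPM in the d-SMG library of day 7, and at 2.16 and 104 CPM on day 14. It was thus 155-fold higher on day 7 and 48.3-fold higher on day 14, with a fitted log2 fold change of 6.69 ± 1.23 (SE) and an edgeR adjusted p of 1, and the fitted value was 5.25 without the d-SMG library of day 7 and 7.79 without that of day 14. Both d-SMG libraries were above both control libraries, but the s-GAG libraries held more, 142 and 841 CPM. *Krt28*, a type I keratin of the inner root sheath, was at 0.207 and 20.3 CPM in control and d-SMG on day 7 and at 1.52 and 30.5 CPM on day 14. *Krt85*, a type II hair shaft keratin, was at 0.553 and 32.03 CPM on day 7 and at 4.96 and 56.6 CPM on day 14. Neither gene overlapped between the 2 treatments. The leading genes here and among the muscle genes were named for large folds on both days, which favors such a separation. *Krt75*, the keratin of the companion layer around the inner root sheath, was at 4.63 and 68.9 CPM on day 7 and at 11.1 and 124 CPM on day 14, which are folds of 14.9 and 11.3. *Krt71*, an inner root sheath keratin, differed more by day, with 10.7 and 373 CPM on day 7 and 206 and 548 CPM on day 14. In that gene the day 14 control already exceeded its day 7 level, and the fold was 34.9 on day 7 and 2.66 on day 14. *Krt72* and *Krt73*, further inner root sheath keratins, were 107-fold and 56.7-fold higher on day 7 and 7.74-fold and 7.50-fold higher on day 14. *Vsig8*, a membrane protein of the hair shaft cuticle, was 11.9-fold and 17.8-fold higher. Several day 7 folds rest on few control reads, with 3 of *Krt28*, 8 of *Krt85*, 8 of *Krt72*, 14 of *Krt73* and 6 of *Vsig8*.

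Hair follicle regulators were more often higher than lower in d-SMG. Of 30 tested genes, 9 were shared higher (30%, against 2.02% of all genes) and 0 shared lower. On both days 20 were higher and 3 lower, against 4696 and 4385 of all 15762 tested genes, and the others differed in direction. The median log2 fold changes of the list were 1.06 and 1.24. DESeq2 called 3 of the 30, all higher, against 0.317% of all genes with an adjusted p. *Foxe1*, a forkhead transcription factor of the follicle, had 0 reads in the control of day 7 and 35 in d-SMG, at least 8.19-fold higher against a floor of 3 reads in the control library, and was 18.5-fold higher on day 14 with 6 and 85 reads. *Dlx3*, a homeobox gene needed for hair shaft and inner root sheath formation, had 0 and 125 reads on day 7 and 36 and 192 reads on day 14. *Msx2*, a homeobox gene of the hair matrix, was 6.86-fold and 8.69-fold higher, from 0.622 to 4.27 CPM and from 0.884 to 7.68 CPM. These 3 regulators were named for large differences in the same direction on both days, so their higher d-SMG levels on each day follow from that choice. *Mt4*, a metallothionein of stratified epithelia, followed the hair genes closely, at 0.276 and 11.1 CPM on day 7 and at 0.540 and 26.5 CPM on day 14.

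**Figure D2:**
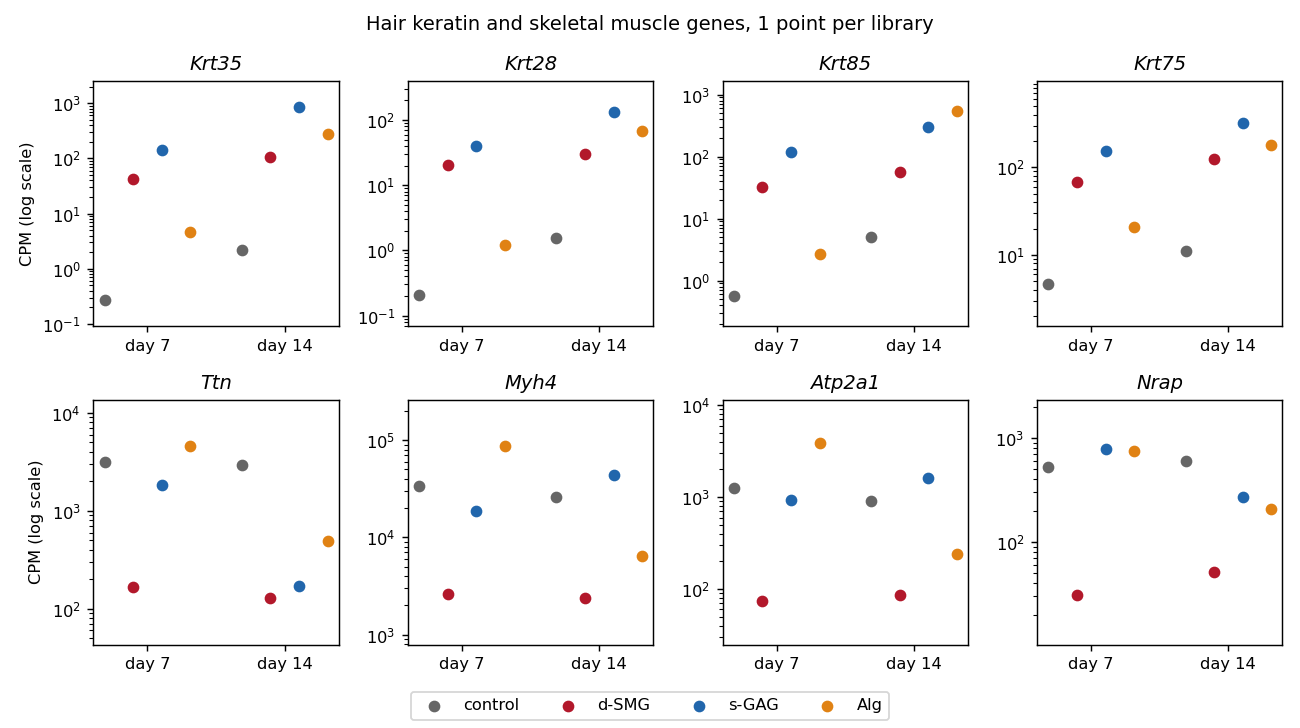
CPM on a log scale for 4 hair keratin genes (top) and 4 skeletal muscle genes (bottom), 1 point per library, with the groups by color. The d-SMG points (red) lie above the control points (grey) for the hair genes on both days, and below the other points of their day for the muscle genes.

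By share of reads, the hair list was higher in d-SMG than in the saline control on both days. Of the libraries with other dressings, only that of Alg on day 7 held a lower share than d-SMG. The reads of the list were 0.0169% of the control and 0.438% of the d-SMG total on day 7, and 0.29% and 0.602% on day 14. They were 0.951% and 0.67% in s-GAG, and 0.0891% and 5.13% in Alg on the 2 days, so the d-SMG share lay between or below these. Against the mean of the control, s-GAG and Alg groups, the median log2 fold change of the list was 0.269. DESeq2 called 0 of its 34 genes in that comparison, against 0.0757% higher and 0.963% lower of all genes with an adjusted p. Among all 319 shared higher genes, the control was the lowest of the 4 libraries of its day on both days for 249, and d-SMG was the highest for 38. These counts describe the members, since the rule itself used the control and d-SMG values. Over the 8 libraries the rule did not use, the level of 147 of the 287 shared higher genes outside the hair lists (51.2%) had a Pearson r over 0.7 with the mean log level of the hair list, against 8.8% of all tested genes outside the hair lists, and these libraries differ in treatment, day and depth together.

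Skeletal muscle genes were the list most often lower in d-SMG on both days. Of 37 tested contraction genes, 31 were shared lower (83.8%, against 2.77% of all genes) and 0 shared higher. On both days 36 were lower, against 4385 of all 15762 tested genes. The median log2 fold change was -3.2 on day 7 and -2.55 on day 14. DESeq2 called 13 of the 37, all lower, against 0.667% of all genes with an adjusted p. With edgeR none was called, and 18 were lower at an unadjusted p under 0.05, against 315 of all 15762 genes. The list took 7.7% and 8.52% of the reads of the control libraries on days 7 and 14 but 0.906% and 1.23% of the d-SMG libraries. It took 6.2% and 12.2% in s-GAG and 17.6% and 1.67% in Alg, so that both d-SMG libraries were below every other library of their day. The part of this share of muscle reads in the other differences was not tested.

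*Ttn*, the giant spring protein of the sarcomere, was at 3113 CPM in the control and 166 CPM in d-SMG on day 7, and at 2914 and 130 CPM on day 14. It was 18.8-fold and 22.5-fold lower, with a fitted log2 fold change of -4.43 ± 1.07 (SE) and an edgeR adjusted p of 1. The 2 controls were alike and both d-SMG libraries lay far below them, and the fitted value ranged from -5.75 without the d-SMG library of day 14 to -2.87 without the control of day 14. *Myh4*, the myosin heavy chain of fast IIb fibers, was at 33480 and 2616 CPM on day 7 and at 26280 and 2371 CPM on day 14. *Atp2a1*, the calcium pump of the fast-fiber sarcoplasmic reticulum, was at 1262 and 74.8 CPM on day 7 and at 903 and 85.6 CPM on day 14. *Nrap*, an actin-binding protein of the myotendinous junction, was at 523 and 31.0 CPM on day 7 and at 595 and 51.1 CPM on day 14. In each of these the folds of the 2 days lay between 10.6 and 16.9. *Clcn1*, the muscle chloride channel, had 105 and 8 reads on day 7 and 125 and 1 on day 14. The day 14 fold of 95.9 thus rests on a single read, with a 95% interval of the log2 fold change from -11.9 to -4.08. *Trdn* (triadin of the calcium release complex), *Mylk2* (the skeletal myosin light chain kinase), *Cmya5* (myospryn), *Asb14* and *Kbtbd12* were 11.1-fold to 15.2-fold lower on day 7 and 10.5-fold to 27.6-fold lower on day 14. *Ppp1r3a* is the muscle glycogen-targeting subunit of protein phosphatase 1, and *Ano5* a membrane protein of muscle repair. Among lower genes without a provisional symbol, these 2 had the smallest unadjusted edgeR p beside *Clcn1*, 0.000651 and 0.00151.

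Slow-fiber genes of the contraction list lay on both sides of the rule. *Myh7*, the slow myosin heavy chain, was shared lower, with 63 and 15 reads in control and d-SMG on day 7 and 397 and 27 on day 14. Of the 6 contraction genes that did not meet the rule, *Tnnc1*, the slow-fiber troponin C, had log2 fold changes of -0.018 and 0.652, and *Tnnt1*, the slow-fiber troponin T, -1.04 and -0.261. Of 16 tested muscle regeneration genes, 3 were shared lower (18.8%, against 2.77% of all genes), with medians of -0.462 and -2.08. *Pax7*, the transcription factor of satellite cells, had 16 and 1 reads in control and d-SMG on day 7 and 37 and 6 on day 14. *Myh8*, the perinatal myosin, was 2.83-fold and 8.26-fold lower, and *Cdh15*, the cadherin of myogenic cells, 2.17-fold and 2.74-fold lower.

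In several other lists, the shared lower members included muscle isoforms or genes expressed in muscle and other tissues. Of 29 tested genes of glycolysis and hypoxia, 3 were shared lower (10.3%, against 2.77% of all genes). They were the muscle phosphofructokinase *Pfkm* (5.22-fold and 7.24-fold), the muscle phosphoglycerate mutase *Pgam2* (8.21-fold and 4.16-fold) and the kinase *Pdk4* (2.70-fold and 7.36-fold). Both shared lower genes among the 23 of the respiratory chain (8.7%), *Cox6a2* and *Cox8b*, encode muscle isoforms of cytochrome c oxidase. The 2 shared lower genes among 18 of smooth muscle and myofibroblasts (11.1%), *Synpo2* and *Des*, are also expressed in striated muscle. *Acta2*, the smooth muscle actin, had log2 fold changes of -0.67 and 0.033. The 1 shared lower gene among 19 of adipocytes (5.26%) was *Slc2a4*, the insulin-responsive glucose transporter of fat and muscle.

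**Figure D3:**
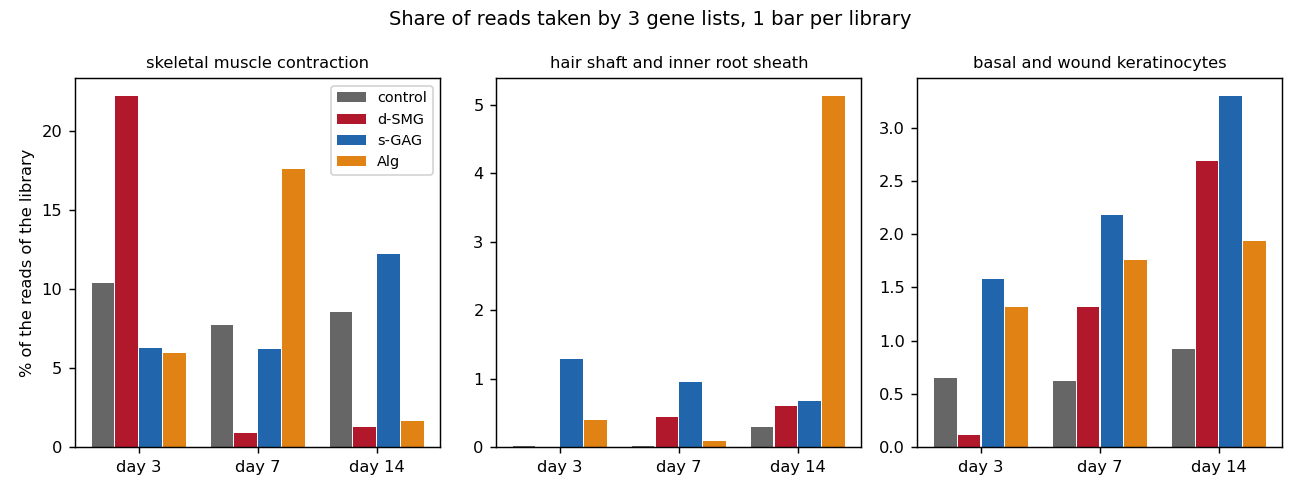
Bars give the percentage of the reads of each library that fell on 3 gene lists, by day and group, 1 library per bar. The muscle list takes 0.906% and 1.23% of the d-SMG libraries on days 7 and 14 and 22.2% on day 3, and the keratinocyte list is lowest in the d-SMG library of day 3.

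Outside the muscle lists, 203 of 402 shared lower genes (50.5%) had a Pearson r over 0.7 with the mean log level of the muscle contraction list over the 8 libraries the rule did not use, against 5.78% of all tested genes outside the muscle lists. For 221 of the 436 shared lower genes, d-SMG was the lowest of the 4 libraries of its day on both days, and the control was the highest for 51. The rule itself placed d-SMG below the control on both days, so these counts only describe the members. Compared with the mean of the control, s-GAG and Alg groups over both days, edgeR called 0 genes (0%), with 489 (3.1%) at an unadjusted p under 0.05 and a smallest adjusted p of 0.303. DESeq2 called 151 genes in this comparison, 11 higher (0.0757%) and 140 lower (0.963%) of 14539. Of the muscle contraction list, 25 of 37 were among the DESeq2 calls, all lower, and the median log2 fold change of the list was -3.16. *Abra*, an actin-binding protein of striated muscle, was at 14.3 and 25.2 CPM in d-SMG on days 7 and 14. In the 6 other libraries it was at 88.8 to 659 CPM, and the log2 fold change against the 3 groups was -3.61 ± 0.739 (SE).

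The starts of the genes with the largest shared differences were read from RefSeq promoters (assembly GRCr8, 250 bases before to 50 after the annotated start), which were given for all 10 leading higher genes and for 8 of the 10 leading lower genes. The letters TATAAA were found on either strand in 5 of the 10 and 3 of the 8, against 14.2% of all 33469 RefSeq promoters. CAGCTG, an E-box, was in 2 of 10 and 3 of 8, against 15.1%, CTTTGA in 2 of 10 and 0 of 8, against 16.1%, and CACGTG in 1 of 10 and 0 of 8, against 6.42%. Shown here are a pair of hair keratins and a pair of muscle genes whose values are given above, from chr10:85529919-85530218 (*Krt35*, minus strand), chr10:84824808-84825107 (*Krt28*, minus strand), chr10:52421898-52422197 (*Myh4*, plus strand) and chr1:190475361-190475660 (*Atp2a1*, minus strand), with every occurrence of the 4 motifs on either strand in capitals and the sequence 5′ to 3′ in the direction of the gene:
Krt35: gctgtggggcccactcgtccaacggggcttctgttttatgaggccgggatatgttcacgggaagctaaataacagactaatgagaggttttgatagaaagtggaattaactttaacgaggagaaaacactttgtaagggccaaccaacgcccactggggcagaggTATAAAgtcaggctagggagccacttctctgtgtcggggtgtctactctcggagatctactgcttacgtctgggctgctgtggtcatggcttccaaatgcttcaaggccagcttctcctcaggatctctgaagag
Krt28: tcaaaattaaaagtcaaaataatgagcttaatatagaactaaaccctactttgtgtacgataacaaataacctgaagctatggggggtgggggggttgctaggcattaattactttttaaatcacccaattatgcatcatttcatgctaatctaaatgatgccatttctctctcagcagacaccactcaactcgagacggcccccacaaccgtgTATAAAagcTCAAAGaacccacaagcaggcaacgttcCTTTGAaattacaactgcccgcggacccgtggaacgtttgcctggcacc
Myh4: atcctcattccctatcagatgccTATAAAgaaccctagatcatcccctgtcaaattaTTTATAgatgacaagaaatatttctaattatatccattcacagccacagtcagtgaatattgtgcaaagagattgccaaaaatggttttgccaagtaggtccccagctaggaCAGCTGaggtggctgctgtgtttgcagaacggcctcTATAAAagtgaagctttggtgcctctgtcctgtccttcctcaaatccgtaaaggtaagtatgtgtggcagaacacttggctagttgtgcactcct
Atp2a1: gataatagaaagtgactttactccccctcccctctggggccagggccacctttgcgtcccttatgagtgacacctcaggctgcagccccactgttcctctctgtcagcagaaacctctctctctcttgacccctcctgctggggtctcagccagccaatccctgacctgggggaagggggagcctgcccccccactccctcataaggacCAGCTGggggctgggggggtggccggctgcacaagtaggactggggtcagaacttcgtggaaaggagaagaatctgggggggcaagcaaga
These are matches of letters and no measurement of binding.

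Keratinocyte genes were higher in d-SMG on both days where they belong to the basal layer and to the wound edge. Of 26 tested genes, 8 were shared higher (30.8%, against 2.02% of all genes) and 0 shared lower. On both days 22 were higher, against 4696 of all 15762 tested genes, and the median log2 fold changes were 0.906 and 1.14. *Krt17*, a keratin of the follicle outer root sheath and of activated keratinocytes, was at 202 and 767 CPM in control and d-SMG on day 7 and at 632 and 2613 CPM on day 14. It was the 1 gene of the list that DESeq2 called, against 0.317% called higher of all genes with an adjusted p. Its fitted edgeR log2 fold change was 1.99 ± 0.582 (SE), with an edgeR adjusted p of 1. *Krt6a* and *Krt16*, keratins induced at the wound edge, were 4.15-fold and 2.67-fold higher on day 7 and 3.36-fold and 2.70-fold higher on day 14. *Krt5* was 2.39-fold and 3.19-fold higher, from 932 to 2225 CPM and from 1388 to 4430 CPM. The s-GAG and Alg libraries held 3366 to 4822 CPM of *Krt5*, and the list differed from the 3 other groups together by a median of 0.121.

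The cornified envelope and suprabasal genes had medians of opposite sign on the 2 days. Their median log2 difference was 1.01 on day 7 and -2.08 on day 14, and 25 of 41 were higher on day 7 and lower on day 14. *Krt10*, the keratin of suprabasal cells, was at 26.4 and 90.2 CPM in control and d-SMG on day 7 but at 2346 and 25.9 CPM on day 14. *Flg*, which encodes filaggrin, was at 5.05 and 7.77 CPM on day 7 and at 284 and 3.2 CPM on day 14. The control of day 14 was the highest of its day for both genes, followed by Alg with 1800 and 54.7 CPM. *Krt77*, a keratin of suprabasal cells and sweat ducts, was the shared lower gene of this list (2.44%, against 2.77% of all genes). It had 32 and 7 reads on day 7 and 4482 and 8 reads on day 14. *Rptn*, which encodes repetin of the cornified envelope, was the shared higher gene (2.44%, against 2.02% of all genes). It had 60 and 231 reads on day 7 and 44 and 68 reads on day 14. Its fitted log2 fold change of 1.32 was -0.0462 without the d-SMG library of day 7. DESeq2 called 3 of the 41, all lower, against 0.667% of all genes with an adjusted p. They were *Krt77*, *Flg* and *Lce1m*, a late cornified envelope gene with 3 reads in both libraries of day 7 and with 545 and 1 on day 14.

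Of 42 tested cytokines and chemokines, 5 were shared higher (11.9%, against 2.02% of all genes) and 1 shared lower (2.38%, against 2.77%). *Ccl11*, the eosinophil chemoattractant eotaxin, was at 0.622 and 7.23 CPM in control and d-SMG on day 7 and at 0.835 and 5.12 CPM on day 14. *Ccl7*, a monocyte chemoattractant, was 2.52-fold and 7.35-fold higher, and *Cxcl14*, a chemokine of epithelia, 2.497-fold and 2.67-fold higher. The 1 gene that met the rule in the lower direction was *Il1a*, interleukin-1 alpha of keratinocytes, with 23 and 5 reads on day 7 and 72 and 2 on day 14. DESeq2 called it and edgeR did not, and its low read numbers give 95% intervals of the log2 fold change from -4.46 to -1.29 and from -7.86 to -2.88. *Il1a* was also low in s-GAG on day 14, with 5 reads, and not in Alg, with 54.

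Macrophage genes had 2 shared higher members of 30 (6.67%, against 2.02% of all genes), with list medians of 0.207 and -0.432. *Spp1*, which encodes osteopontin, was at 188 and 954 CPM in control and d-SMG on day 7 and at 23.7 and 97.0 CPM on day 14. In Alg on day 14 it was at 109 CPM, slightly above d-SMG. *Cd80*, a costimulatory ligand, was 2.11-fold and 5.82-fold higher. *Cd68*, a general macrophage marker, had opposite log2 fold changes of 0.717 and -0.983. Of 28 genes of T, NK and B cells, 1 was shared higher (3.57%, against 2.02% of all genes). It was *Cd3d* of the T cell receptor complex, at 4.77 and 10.1 CPM on day 7 and at 6.04 and 16.8 CPM on day 14. The median of this list against the 3 other groups was 1.31, against 0.0156 over all genes.

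Among higher genes without a provisional symbol, the 3 smallest p-values of the quasi-likelihood test against control belonged to *Fga*, *Trpv6* and *Prss22*. Those against the 3 other groups belonged to *Lyc2*, *Fga* and *RT1-DOb*. Genes with provisional symbols, such as LOC numbers, were not ranked. *Fga*, the fibrinogen alpha chain, was at 0.276 and 5.63 CPM in control and d-SMG on day 7 and at 0.491 and 12.9 CPM on day 14. It was 20.4-fold and 26.2-fold higher, on 4 and 10 control reads. The fitted log2 fold change was 4.52 ± 0.636 (SE), with an unadjusted edgeR p of 0.000141 and an adjusted p of 1. d-SMG was above the 3 other libraries on both days, which held 0.276 to 3.27 CPM. *Lyc2*, a lysozyme gene with a close paralog that may share reads, was at 60.6 CPM in d-SMG on day 7 and 9.28 CPM on day 14, against 0.763 to 3.53 CPM in the 6 other libraries. Its log2 fold change against the 3 other groups was 4.21, with an edgeR adjusted p of 0.303. *RT1-DOb*, a class II histocompatibility gene of antigen-presenting cells, was at 8.83 and 16.1 CPM in d-SMG and at 1.67 to 4.27 CPM in the other 6. *Fam111a*, a protease gene of DNA replication and one of the 10 leading shared higher genes, was at 166 and 217 CPM in d-SMG. It was at 10.6 and 7.66 CPM in the controls and at 9.23 and 19.5 CPM in Alg. The s-GAG library of day 7 held 105 CPM and that of day 14 held 8.81 CPM. On day 3 the control had more reads of *Fam111a* than d-SMG, 3115 against 2099. *Trpv6*, an epithelial calcium channel, and *Prss22*, an epithelial serine protease, had unadjusted edgeR p-values of 0.000241 and 0.000407 against control. For both genes s-GAG lay above d-SMG on both days. *Trpv6* was at 6.51 and 14.3 CPM in s-GAG and at 1.80 and 6.34 CPM in d-SMG, with 0 and 4 control reads. *Prss22* was at 15.7 and 29.3 CPM in s-GAG and at 4.03 and 13.7 CPM in d-SMG.

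**Figure D4:**
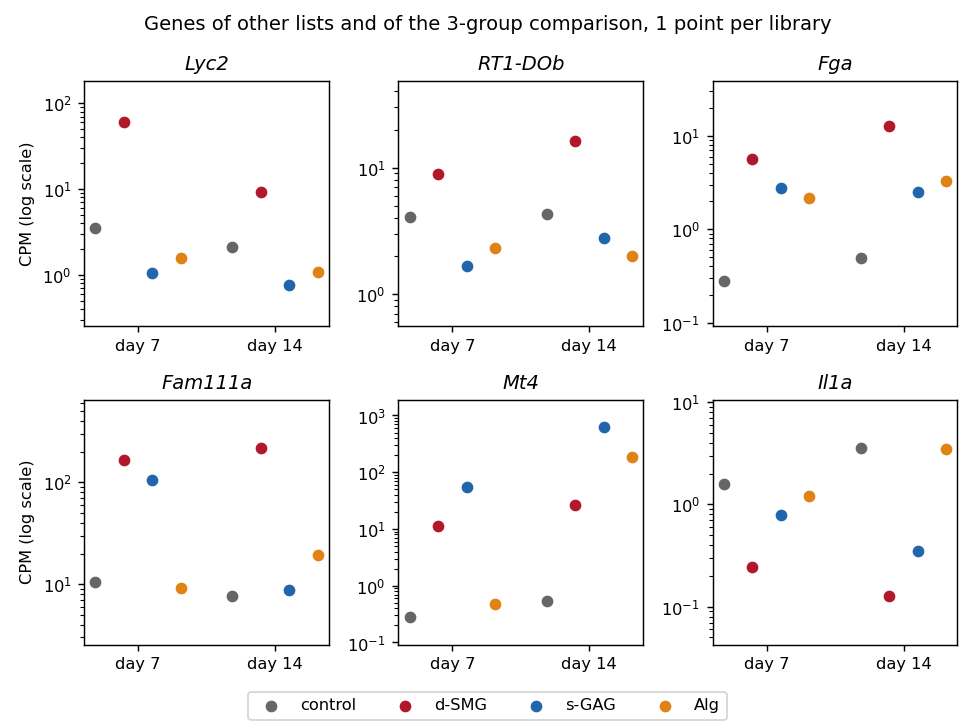
CPM on a log scale for 6 genes outside the muscle and hair lists, 1 point per library, with the groups by color. *Lyc2*, *RT1-DOb* and *Fga* are highest in d-SMG (red) on both days, *Mt4* is higher in s-GAG on both days, and *Il1a* is lowest in d-SMG.

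Matrix, growth factor and vascular genes differed less. Of 35 tested collagen and matrix genes, 20 were lower on both days (against 4385 of all 15762) and 1 higher (against 4696). Only *Col5a1*, a fibrillar collagen, met the rule (2.86%, against 2.77% of all genes), with 2.03-fold and 2.14-fold lower levels. *Col1a1* and *Col3a1*, the main fibrillar collagens, had log2 fold changes of -0.999 and -0.468 on day 7 and -0.676 and -0.965 on day 14. The control held the most *Col1a1* of all groups on both days, with 15350 and 10440 CPM against 7683 and 6533 CPM in d-SMG, and s-GAG and Alg held 2209 to 4716 CPM. Of 30 growth factors of wound repair, *Areg*, a ligand of the EGF receptor, was shared higher (3.33%, against 2.02% of all genes). It was at 1.73 and 5.53 CPM on day 7 and at 3.88 and 11.97 CPM on day 14. *Vegfa*, *Vegfb*, *Tgfb1*, *Pdgfa* and *Pdgfb* had log2 fold changes between -0.635 and 0.597 on both days. *Col7a1*, the collagen of anchoring fibrils, had 0.177 and 1.29. *Fgf3* had 0 and 5 reads in control and d-SMG on day 7 and 6 and 0 on day 14. Of 26 proteases and inhibitors, *Mmp3* and *Mmp7*, the stromelysin and matrilysin genes, were shared higher (7.69%, against 2.02% of all genes). *Mmp3* was 4.66-fold and 2.21-fold higher. *Mmp7* rested on 25 and 12 reads in d-SMG. Endothelial genes had 0 shared members of 26.

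The remaining lists had few or no shared members, where 4.79% of all genes were shared in either direction. The 39 proliferation genes had 0, although 31 were higher on both days (against 4696 of all 15762 genes). Their medians were 0.18 on day 7 and 1.69 on day 14. Cholesterol biosynthesis (22 genes, medians -0.106 and 1.45), the interferon response (31 genes, 0.242 and -0.867), immediate early genes (20 genes, 0.454 and 0.836) and the circadian clock (19 genes, 0.0045 and -0.485) also had 0. Neutrophil, sebaceous, erythroid and Schwann cell genes had 0 shared members of 12, 20, 11 and 21. *Hdc*, histidine decarboxylase of mast cells, was the 1 shared higher gene of 10 mast cell genes (10%), 2.81-fold and 5.66-fold. *Retn*, which encodes resistin, was the 1 of 19 adipocyte genes (5.26%), 4.40-fold and 6.05-fold. *Orm1*, an acute phase protein, was with *Fga* 1 of the 2 of 13 coagulation and acute phase genes (15.4%). Over all genes, 2.02% were shared higher. The 17 housekeeping genes had 1 shared lower member (5.88%, against 2.77% of all genes) and medians of -0.0123 and 0.298. The sign of a median turned with the scaling in 9 of the 29 lists. By library size alone, the day 7 medians of cholesterol biosynthesis (0.196), sebaceous gland (0.0393), matrix proteases and inhibitors (0.13), growth factors (0.0548), neutrophils (0.127), the respiratory chain (0.28) and housekeeping (0.289) were above 0, as was that of growth factors on day 14 (0.00765). With RLE factors, the circadian clock (-0.0229 on day 7) and coagulation and acute phase genes (-0.0027 on day 14) were below 0.

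**Figure D5:**
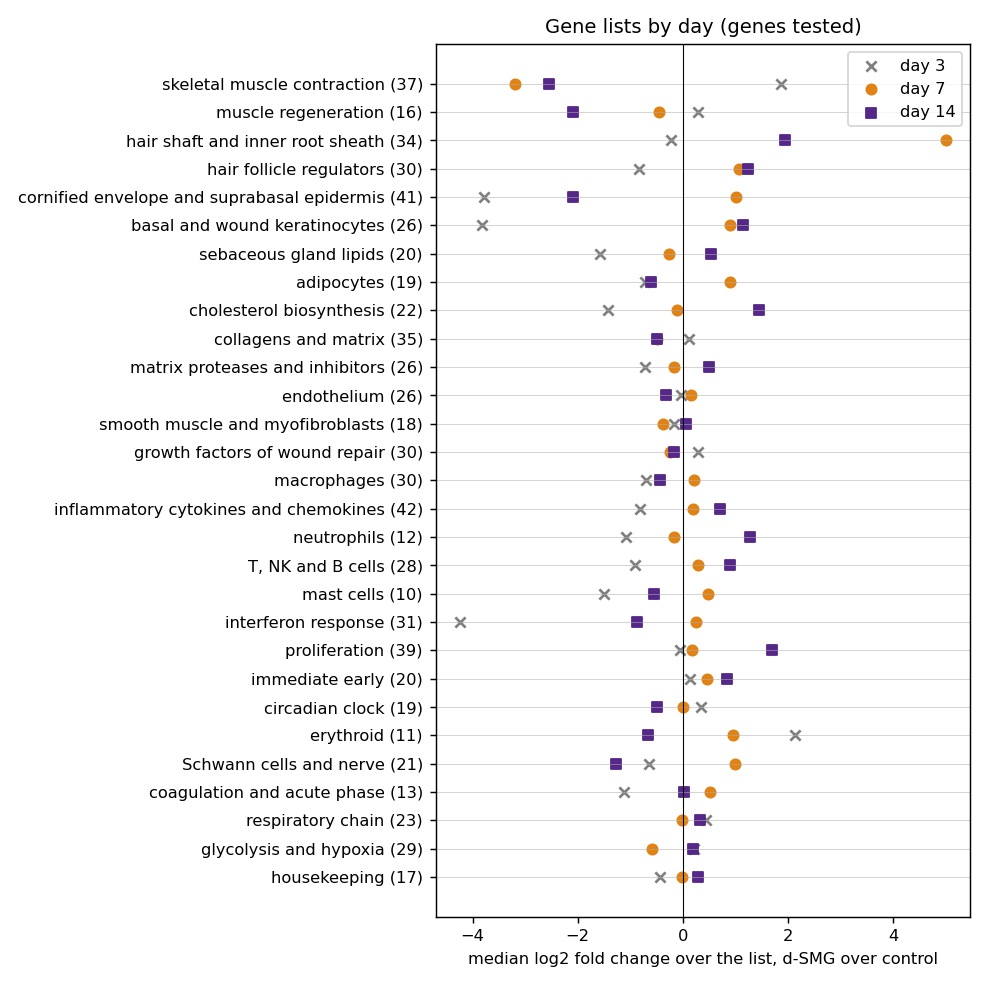
Median log2 fold change of d-SMG over control for each gene list on days 3, 7 and 14, with the number of genes tested in brackets, where day 3 leaves out genes with at most 3 reads in both of its libraries. Muscle contraction lies at -3.2 and -2.55 on the later days and at 1.86 on day 3, and the hair list lies at 5.01 and 1.95 on the later days and, over 8 genes, at -0.226 on day 3.

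On day 3, most of the shared genes lay in the opposite direction. Among genes with more than 3 reads in at least 1 of its d-SMG and control libraries, 208 of 268 shared higher genes (77.6%) were lower in d-SMG on that day, against 51.6% of all genes, and 397 of 433 shared lower genes (91.7%) were higher, against 48.4%. Of the 34 hair shaft and inner root sheath genes, only 8 had more than 3 reads in either library, 4 higher and 4 lower, so that day 3 gives no direction for this list. On that day the muscle contraction list was higher in d-SMG, with a median log2 difference of 1.86, and took 22.2% of the d-SMG and 10.4% of the control reads, and the basal keratinocyte list had a median of -3.82. *Krt14*, the main basal keratin, had 263 reads in the d-SMG library of day 3 against 73682 in the control, and *Ckmt1* and *Rbp2*, a creatine kinase and a retinol-binding protein of epithelia, had 0 and 1 reads against 558 and 193. In edgeR's test of the day 3 difference against the later difference, 0 of 15672 genes (0%) had an adjusted p under 0.05, with 1133 (7.23%) at an unadjusted p under 0.05 and a smallest adjusted p of 0.133, whereas DESeq2 called 467. Among the 754 shared genes in the edgeR test, 389 had an unadjusted p under 0.05, against 7.23% of all genes. The rule of shared differences used the later values that enter this test. Without provisional symbols, the leading genes were *Rbp2*, with a day 3 minus later log2 difference of -8.76 ± 0.942 (SE), and *Nt5c1a*, a muscle nucleotidase, with 6.97.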

How the data were processed

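RNA from wound tissue was sequenced as stranded, rRNA-depleted paired-end libraries, 1 per group and day. Per the labels and the study's methods, the authors aligned reads with TopHat2 and used edgeR, and FastQC and bcl2fastq are named in the submitters' processing notes. Versions, genome build and the counting program are not given in the sources used here. The authors deposited a table of read counts per gene, which was used for all results here, and a table of FPKM values per gene, which was used as an alternative. In both tables, a single column (1 each) matched no sample and was not used.

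Genes were kept by filterByExpr of edgeR over the 8 libraries of days 7 and 14 (15762 of 25620 genes) and scaled by TMM factors. The quasi-likelihood test of edgeR 4.0.16 was fitted to these 8 libraries with terms for day and treatment, leaving 3 residual degrees of freedom, with Benjamini-Hochberg adjustment over all genes tested and a threshold of 0.05. The day is the label shared by the groups and served as the block. The test of day 3 against the later days used all 12 libraries. Shared differences were taken from each day's pair of libraries without a test, with 0 to 2 reads set to 3 reads. A printed fold against 0 reads is a bound against 3 reads in that library, and one on 1 to 3 reads is the measured ratio. Intervals are exact Clopper-Pearson 95% intervals and cover counting error only, since the reads carry no molecular identifiers. Whether strand was used in counting is not given, so overlapping genes on opposite strands could share reads.

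Genes named are the 10 shared higher and 10 shared lower genes with the largest smaller fold of the 2 days. Candidates had to reach 100 reads in 1 library of each day's pair and have no provisional symbol. Also named are the 3 in each direction with the smallest p in each test, again without provisional symbols. Up to 4 members of each of 29 gene lists with the largest difference shared in direction were added, with up to 2 that define the cell type. The last are 9 growth factor and collagen genes taken from those the study names for these days, with its *Pdgf* read as *Pdgfa* and *Pdgfb*. The inflammation and M2 macrophage genes of its day 14 qPCR (*Cd86*, *Il1b*, *Arg1*, *Il10*, *Cd163* and *Jak3*) were not taken by this rule. *Tnnc1*, *Tnnt1*, *Myh7*, *Rptn* and *Lce1m* were named after their values were seen. The members and the lists were chosen with earlier results of these data known. DESeq2 1.42.0, other scalings and filters, left-out libraries, FPKM on the log2 scale with limma 3.58.1 (pseudocounts 1 and 0.1) and a fit without the day block were alternatives. The fits were tested on simulated data. Promoters came from RefSeq (GRCr8).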

Additional observations from a re-analysis of the deposited data

Results flagged for a closer look

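Some gene lists had median log2 fold changes of d-SMG over control, each at least 0.5 from 0, that lay on opposite sides of 0 between days. The difference between days was not tested for any list, since each day had 1 library per group.

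In 3 lists, day 3 was opposite to both later days. Skeletal muscle contraction had a median of 1.86 on day 3, -3.2 on day 7 and -2.55 on day 14. Hair follicle regulators had -0.578 on day 3 (-0.826 without the genes that had at most 3 reads in both libraries, which left 26 of 30), 1.06 on day 7 and 1.24 on day 14. Basal and wound keratinocytes had -3.82 on day 3, 0.906 on day 7 and 1.14 on day 14. Per gene, the edgeR test of day 3 against the later days gave an unadjusted p under 0.05 for 14 of 37 genes of the muscle list, 10 of 30 hair follicle regulators and 18 of 26 keratinocyte genes, with 0 after adjustment. Over all 15672 genes in that test, the share at an unadjusted p under 0.05 was 7.23%.

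In 4 lists, day 7 was opposite to day 14. The cornified envelope and suprabasal epidermis had 1.01 on day 7 and -2.08 on day 14, and 15 of its 41 genes were at least 2-fold higher on day 7 and at least 2-fold lower on day 14. Adipocyte genes had 0.905 and -0.612, erythroid genes 0.957 and -0.657, and genes of Schwann cells and nerve 1 and -1.27.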

How the results depend on the processing

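The comparison of d-SMG with control kept 0 calls with RLE factors, library size alone, the lower read filter, day 3 included, limma on FPKM, without the s-GAG library of day 14 (chosen after seeing the data) and with each d-SMG and control library left out in turn (0 to 0 calls in each of the 3 edgeR tests). Without the replicate block, that is with treatment alone, edgeR also called 0 genes, with 556 at an unadjusted p under 0.05 against control and 511 against the 3 other groups. DESeq2 called 149 genes against control, 151 against the 3 other groups and 467 for day 3 against the later days, and the 4 d-SMG and control libraries alone gave 107. At an unadjusted p under 0.05, leaving out a library gave 212 to 899 genes against control, the lowest without the control of day 14 and the highest without the control of day 7. Including day 3 gave 210, and without the s-GAG library of day 14 the number was 810.

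The number of shared higher and lower genes was 304 and 447 with RLE factors and 393 and 480 without the interval. It was 538 and 348 by library size alone, 76 and 180 at 4-fold, 196 and 320 where 1 library of each day's pair had to reach 50 reads, 162 and 178 on FPKM with a pseudocount of 1 and 475 and 318 with 0.1, and 46 and 119 with an exact test at an assumed coefficient of variation of 0.3 on both days. The cause of these differences was not tested, except that the stricter rules admit fewer genes by construction.

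Of 574 alternative fits of 82 named genes, 556 kept the direction of the fitted log2 fold change and 0 were called. The direction turned in 12 genes. Over the fits that leave out a library, *Cd68* ranged from -1.07 to 0.796, *Fgf3* from -5.23 to 4.09, *Vegfb* from -0.00531 to 0.337, *Vegfa* from -0.474 to 0.492, *Pdgfa* from -0.831 to 0.824, *Pdgfb* from -0.778 to 0.121, *Acta2* from -0.957 to 0.359, *Myh8* from -4.24 to 0.182, *Krt10* from -5.68 to 1.02, *Rptn* from -0.0462 to 2.245, *Tnnc1* from -0.249 to 0.851 and *Flg* from -5.60 to 0.047. The lowest values of *Cd68*, *Fgf3* and *Vegfb* came without the d-SMG library of day 7, which gave the lowest values of *Krt10*, *Flg* and *Rptn* too, and *Tnnc1* was negative without that of day 14, and without the control of day 14 *Myh8*, *Krt10* and *Flg* turned positive. *Vegfa* was also negative without the control of day 7 (-0.109), *Cd68* there (-0.277) and with RLE factors (-0.0166), *Fgf3* there (-0.366) and without the replicate block (-0.282), and *Pdgfa* was positive by library size alone (0.122). With 1 library per group and day, the precision is limited by the number of libraries and not by depth, except in genes with few reads such as *Clcn1*, *Il1a*, *Pax7* and *Fgf3*.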

Other observations

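Class II histocompatibility genes, which present antigen on dendritic cells, macrophages and B cells, were looked at after the position of *RT1-DOb* was seen, so the set is a description without a test. All 9 tested genes of this group were higher in d-SMG on day 7 and 8 of 9 on day 14, against 51.2% and 50.8% of all genes with more than 3 reads in at least 1 library of the pair, and 3 met the rule of shared differences, against 2.02% of all genes. *Cd74*, the invariant chain, was at 325 and 660 CPM in control and d-SMG on day 7 and at 339 and 708 CPM on day 14. *RT1-Db1*, a class II beta chain with close paralogs and therefore an uncertain read assignment, was at 71.0 and 396 CPM on day 7 and at 24.8 and 166 CPM on day 14, and the s-GAG and Alg libraries of day 14 held more, 432 and 292 CPM. *Ciita*, the transactivator of the group, was at 12.3 and 25.9 CPM on day 7 and at 12.3 and 11.1 CPM on day 14.

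Metallothioneins, small proteins that bind zinc and copper, were also chosen after their values were seen. All 3 tested genes were shared higher, against 2.02% of all genes. *Mt1* was at 7.39 and 20.1 CPM in control and d-SMG on day 7 and at 5.89 and 47.3 CPM on day 14, and *Mt2A* at 2.07 and 6.45 CPM and at 2.65 and 23.1 CPM. In s-GAG both genes were higher still, with 58.3 and 126 CPM of *Mt1*.

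Among the shared lower genes outside the lists, *Trim63* and *Fbxo32*, the ubiquitin ligases of muscle atrophy, were lower by log2 fold changes of -1.56 and -1.02 on day 7 and -2.07 and -2.95 on day 14. The imprinted noncoding RNA *H19* was at log2 fold changes of -2.41 and -3.23. These genes were named after their values were seen.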
